A study of Homo sapiens with 14 samples.

Results

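The levels of 10 genes of the WNT signalling pathway (WNT9A, WNT5A, AXIN2, LEF1, TCF7, DKK1, DKK3, SFRP1, RNF43 and NKD1) were described across 14 polyA-selected, stranded RNA-seq libraries of A375 cells, a human melanoma line. The genes were chosen by name among 28307 genes in the gene files, and WNT9A was selected on its higher level in the bulk Z18 CRISPR cells. A copy of the L2 transposable element (TE) in the 3′ UTR of WNT9A was chosen with it, as 1 of 579614 TE copies counted on their own strand. All libraries carried the same question, what changes in ZC3H18 (Z18), a zinc-finger protein that works with the nuclear RNA surveillance machinery, do to the RNA of these cells. Bulk Z18 CRISPR cells (n = 3) had been transfected transiently for editing of Z18 and selected with antibiotic, and bulk control cells (n = 3) had received a Cas9 vector with no guide RNA and the same selection. Loss-of-function clones had been made with 2 different guides. The single-cell clones came from limiting dilution and were heterozygous for a truncating Z18 mutation (Z18 trunc/+, n = 3), heterozygous for loss of function (Z18 -/+, n = 3) or wild type (Z18 WT, n = 2). Every clone stands for 1 library, the 3 Z18 trunc/+ clones do not all carry the same truncation, and the bulk CRISPR cells are a mixture of edited and unedited alleles.

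WNT ligands are secreted, lipid-modified glycoproteins. In the canonical branch they bind Frizzled receptors with LRP5 or LRP6, beta-catenin escapes its destruction complex, and beta-catenin joins TCF and LEF factors on target genes such as AXIN2, NKD1, RNF43, LEF1 and TCF7. Non-canonical ligands, of which WNT5A is best known in melanoma, act on cell polarity and movement. L2 elements are ancient, immobile LINE copies, many of which lie inside genes and are transcribed with them.

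Aligned fragments ranged from 15615675 in bulk control 3 to 33018360 in Z18 trunc/+ 1. Gene levels were FPKM (fragments per kilobase of transcript, scaled to the size of the library), which carry no depth of their own. ZC3H18 stood at 10.4, 11.9 and 12.8 FPKM in bulk Z18 CRISPR libraries against 38.1, 13.9 and 48.7 FPKM in bulk control libraries. It stood between 8.70 and 14.3 FPKM in Z18 trunc/+ clones and between 16.1 and 17.1 FPKM in Z18 -/+ clones, against 23.5 and 22.0 FPKM in Z18 WT clones. Bulk control 2 stood apart, with the lowest ZC3H18 of the bulk controls and the lowest median gene level of all libraries (2.99 as log2(FPKM + 1), against 3.30 to 3.57 elsewhere). Over all genes tested the median log2 fold change was 0.18 in the bulk comparison, 0.08 without bulk control 2 and 0.03 after quantile normalization, so bulk differences below are to be read against that shift. Of 7 melanocyte lineage markers, SOX10, MITF and S100B were present, whereas PMEL and DCT stayed at or below 0.56 FPKM and MLANA and TYR were listed at 0 in every library. Of the markers of other cell types, 1 of 5 epithelial (KRT14), 4 of 6 fibroblast and 1 of 4 haematopoietic (LYZ) markers reached 1 FPKM in any library. In these bulk RNA samples fewer cells with a transcript and less of it per cell cannot be told apart.

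A letter search was made in the promoters of the members for the TCF/LEF motifs CTTTGAT and CTTTGAA on both strands, since these are the letters through which beta-catenin partners find their targets. RefSeq promoter windows (GRCh38.p14, 250 bases before to 50 after the start) were matched for 6 of the 10 genes (WNT9A, WNT5A, LEF1, TCF7, DKK1 and RNF43), in 9 windows. The DKK1 window held 1 match, 95 bases before the start, at chr10:52314176-52314202 on the plus strand with its flanks. It is shown because no other window held a match. The motif is in capitals:
DKK1: cctcccagcgCTTTGAAatcccatccc
The other 8 windows did not hold these letters. Of 35116 promoter windows of the same length, 6.86% held either motif on either strand, and a match is a description of letters only.

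WNT9A, a canonical-type ligand known from joint and blood stem cell development, stayed at or below 2.73 FPKM in every bulk control and WT library. The gene lies on chromosome 1 (hg38, 227918656 to 227947932, minus strand). It was found at 13.4, 18.6 and 12.4 FPKM in bulk Z18 CRISPR libraries against 2.73, 0.942 and 2.44 FPKM in bulk control libraries. Every edited library lay above every control library. The means were 14.8 ± 3.33 and 2.04 ± 0.957 FPKM (SD, n = 3 each), a 7.29-fold ratio of means, and the log2 fold change was 2.42 with a standard error of 0.32. Log2 fold changes of genes are taken on FPKM + 1, which makes them smaller than ratios of FPKM at low levels. This is the contrast by which WNT9A was selected, so it is given as a description with no test. Without bulk control 2 the log2 fold change was 2.12.

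Among the clones, WNT9A stood at 10.3, 14.5 and 1.73 FPKM in Z18 trunc/+ 1 to 3. It was 0.790, 3.12 and 2.43 FPKM in Z18 -/+ clones and 0.953 and 0.729 FPKM in Z18 WT clones. Z18 trunc/+ 2 thus lay within the range of the bulk Z18 CRISPR cells and Z18 trunc/+ 1 lay between them and the bulk control cells, Z18 trunc/+ 3 lay inside the range of the Z18 -/+ clones, and all 3 lay above the WT clones. The log2 fold change was 2.09 (standard error 0.70) for Z18 trunc/+ over WT, 0.68 (standard error 0.70) for Z18 -/+ over WT and 1.41 (standard error 0.63) for Z18 trunc/+ over Z18 -/+. None of the 3 passed the limma test across all 12904 genes, with adjusted p = 0.617, 1.0 and 0.800 for the comparisons in that order. The members were chosen with earlier results of these data known, so these clone tests may not be independent of the choice of WNT9A. Both WT clones lay below 1 FPKM, so WNT9A passed the filter of 1 FPKM only through the other clones. Its direction against WT was therefore partly set by the filter. Over the other settings and with each clone left out, the adjusted p for Z18 trunc/+ over WT ran from 0.27 to 0.984. Leaving out Z18 trunc/+ 3 gave a log2 fold change of 2.85 there, and leaving out Z18 trunc/+ 2 gave 1.59. For Z18 trunc/+ over Z18 -/+, leaving out Z18 trunc/+ 3 gave 2.17. The limma test called 1 gene (0.00775% of those tested) in Z18 trunc/+ over WT, 1 gene (0.00775%) in Z18 -/+ over WT, and 0 genes (0%) in Z18 trunc/+ over Z18 -/+, where 810 genes had an unadjusted p under 0.05. A p that misses the threshold does not show equal levels.

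Ordered by mean over the 5 groups, WNT9A ran from bulk Z18 CRISPR (14.8 FPKM) through Z18 trunc/+ (8.82 FPKM), Z18 -/+ (2.11 FPKM) and bulk control (2.04 FPKM) to Z18 WT (0.841 FPKM). Each neighbouring pair in that order overlapped in its libraries.

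**Figure D1:**
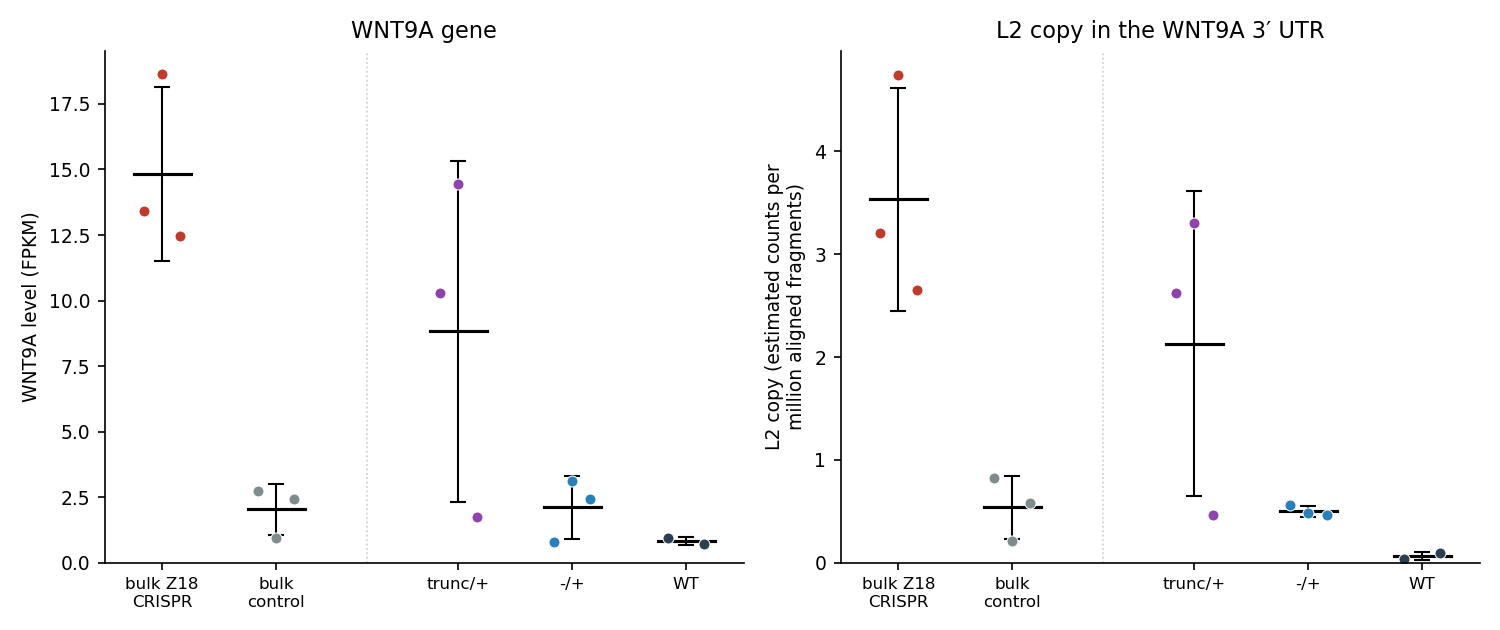
WNT9A in FPKM (left) and the L2 copy in its 3′ UTR in estimated counts per 1000000 aligned fragments (right), with 1 point per library, the group mean as a horizontal bar and the SD as error bars (n = 3, and n = 2 for WT). Bulk Z18 CRISPR libraries lie between 12.4 and 18.6 FPKM, and Z18 trunc/+ clones are split between 1.73 FPKM and a pair at 10.3 and 14.5 FPKM.

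The L2 copy covers 91 bases of the last exon of WNT9A, exon 4, at positions 227920783 to 227920873 on the minus strand of chromosome 1. It starts 645 bases past the stop codon, within a 3′ UTR of 2865 bases (GENCODE release 44, hg38). A MIR3 copy of 76 bases on the same strand (227920781 to 227920856) overlaps it, and fragments of WNT9A mRNA enter both, so the counts of the L2 copy are not a second measurement beside the FPKM of the gene. The L2 copy had 90, 148 and 85 estimated counts in bulk Z18 CRISPR libraries against 22, 4 and 9 in bulk control libraries. It had 86.6, 92 and 13 in Z18 trunc/+ clones, 14, 9 and 11 in Z18 -/+ clones, and 1 and 3 in Z18 WT clones. Nearly all of these were uniquely mapped, the exceptions being 86 of 86.6 in Z18 trunc/+ 1 and 12 of 13 in Z18 trunc/+ 3.

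Per 1000000 aligned fragments the L2 copy averaged 3.53 ± 1.08 in bulk Z18 CRISPR cells and 0.539 ± 0.306 in bulk control cells (SD, n = 3 each), a log2 fold change of 2.68 (standard error 0.63). The averages were 2.13 ± 1.48 in Z18 trunc/+ clones (SD, n = 3), 0.501 ± 0.0548 in Z18 -/+ clones (SD, n = 3) and 0.0646 ± 0.0403 in Z18 WT clones (SD, n = 2). The WT clones held only 4 counts together. Against them the summed counts were 32.3-fold higher in Z18 trunc/+ clones (95% interval 12.4 to 119.9) and 7.55-fold higher in Z18 -/+ clones (95% interval 2.69 to 29.3), where the exact binomial interval covers counting error only and not the spread between clones. Z18 trunc/+ clones exceeded Z18 -/+ clones 4.28-fold on the same measure (95% interval 2.96 to 6.36).

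The choice of the L2 copy was made with all of these counts known, so its tests in the clones are not independent of that choice. By the edgeR quasi-likelihood test the log2 fold change was 4.92 for Z18 trunc/+ over WT (standard error 0.94, adjusted p = 0.883), 2.84 for Z18 -/+ over WT (standard error 0.93, adjusted p = 1.0) and 2.08 for Z18 trunc/+ over Z18 -/+ (standard error 0.66, adjusted p = 1.0). Leaving out WT 1 gave 4.45 for Z18 trunc/+ over WT and 2.37 for Z18 -/+ over WT, and leaving out WT 2 gave 5.71 and 3.63. The edgeR test called 0 of 21634 copies (0%) in any of the 3 comparisons, with 883, 568 and 807 copies at an unadjusted p under 0.05. DESeq2 called 5, 0 and 0 copies, and the L2 copy was among the 5 in Z18 trunc/+ over WT (adjusted p = 0.0124). Over all settings tried, the adjusted p of that comparison ran from 0.00095 to 1.0.

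The gene and its L2 copy ranked the Z18 -/+ clones differently. Z18 -/+ 1 had the lowest WNT9A of its group (0.790 FPKM, against 3.12 and 2.43 FPKM) and the highest L2 level (0.564 per 1000000 fragments, against 0.480 and 0.461 per 1000000 fragments). On the L2 measure every Z18 -/+ clone lay above both WT clones (0.0361 and 0.0931 per 1000000 fragments), whereas in FPKM Z18 -/+ 1 lay between them. The L2 order of the Z18 -/+ clones rests on 14, 9 and 11 counts, few enough for counting error to change it. Why the measures part there was not tested.

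Fragments were also counted on TE copies in the introns of WNT9A. The span of the gene held 15 same-strand copies with counts, 2 in the last exon (L2 and MIR3) and 13 in introns. The intron copies had 137, 150 and 56 counts in bulk Z18 CRISPR libraries against 11, 6 and 1 in bulk control libraries. They had 106, 114 and 13 in Z18 trunc/+ clones, 11, 7 and 30 in Z18 -/+ clones, and 6 and 6 in WT clones. Groups did not overlap in bulk, and Z18 trunc/+ 1 and 2 again stood far above the other clones. Per 1000000 aligned fragments the intron copies averaged 3.81 ± 1.79 in bulk Z18 CRISPR cells and 0.267 ± 0.181 in bulk control cells (SD, n = 3 each). The averages were 2.59 ± 1.89 in Z18 trunc/+ clones, 0.691 ± 0.491 in Z18 -/+ clones (SD, n = 3 each) and 0.201 ± 0.022 in WT clones (SD, n = 2). Of the 13 intron copies, 13 had a higher mean in bulk Z18 CRISPR than in bulk control cells and 12 had a higher mean in Z18 trunc/+ than in WT clones. These copies share transcripts and sit in 1 gene, so they are not replicates, and they carry no test. The gene was selected on the bulk contrast, and only copies with counts in some library were listed. The direction of these copies was therefore largely set in advance, and nothing is read from their number.

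**Figure D2:**
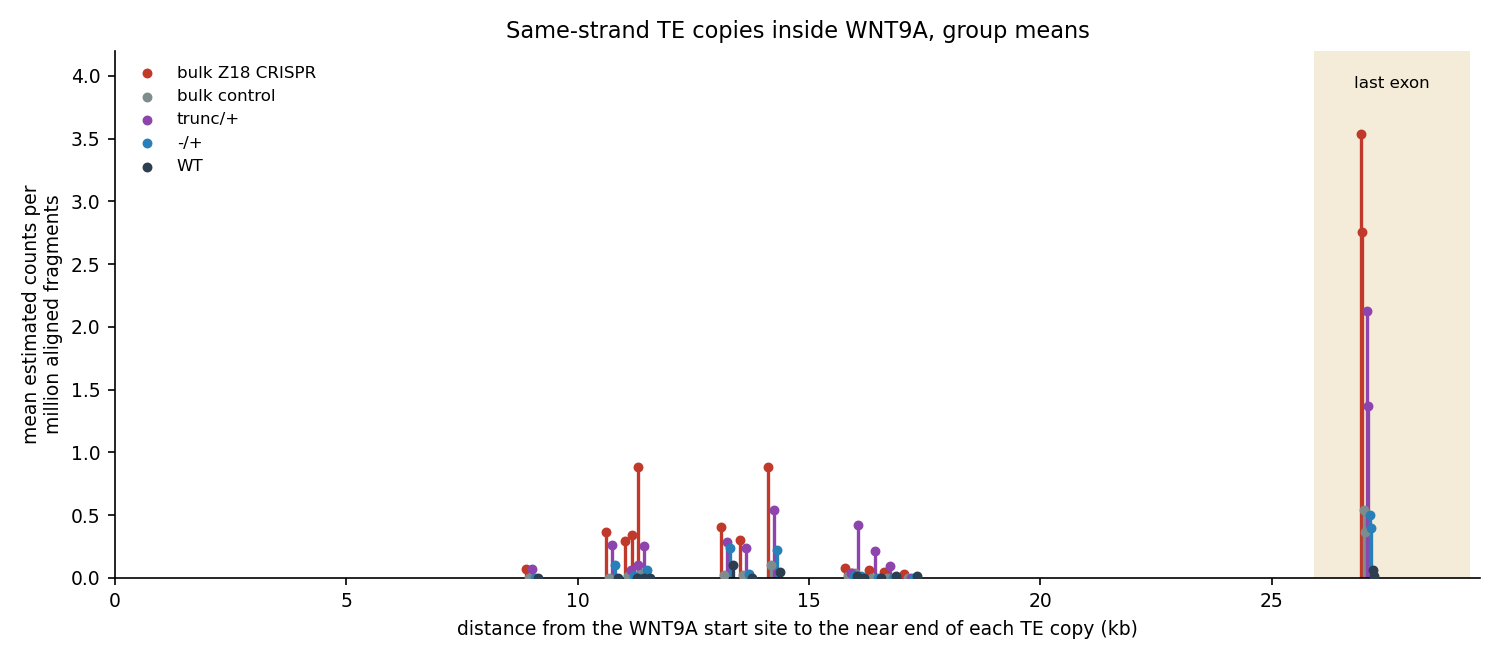
Mean estimated counts per 1000000 aligned fragments (vertical axis) of the 15 same-strand TE copies inside WNT9A, by distance in kb from the start site of the gene (horizontal axis), in the 5 groups, with the last exon shaded. The overlapping L2 and MIR3 copies stand in the last exon, the 13 intron copies lie upstream of it, and bulk Z18 CRISPR (red) and Z18 trunc/+ (purple) carry the tall stems in both.

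Genes around WNT9A showed no called difference. Within 250 kb lay 18 other annotated genes, of which 8 were tested in bulk and 10 in clones, and 0 passed the limma test in any of the 4 comparisons. In bulk their log2 fold changes ran from -1.57 to 0.37 with a median of -0.45. For Z18 trunc/+ over WT they ran from -0.32 to 0.36. Of all genes tested, only 0.347% were called in bulk. In the clones 0.00775% were called for Z18 trunc/+ over WT, 0.00775% for Z18 -/+ over WT and 0% for Z18 trunc/+ over Z18 -/+. Nothing is therefore read from the lack of calls among so few neighbours. WNT3A, a canonical ligand 59.1 kb away, was listed at 0 in every library.

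By the distance between log2(FPKM + 1) profiles over the 14 libraries, each centred on its own mean, the genes most like WNT9A among 11854 were ANPEP, NRP1, FERMT1, FHOD3 and LPXN, with root mean square distances of 0.59, 0.60, 0.64, 0.64 and 0.64. ANPEP, a surface aminopeptidase, was at 178, 184 and 183 FPKM in bulk Z18 CRISPR libraries against 93.8, 36.7 and 53.9 FPKM in bulk control libraries. In the clones it was at 164, 158 and 56.8 FPKM in Z18 trunc/+, 36.1, 72.1 and 128.7 FPKM in Z18 -/+, and 47.8 and 62.8 FPKM in WT. The choice by likeness fixes that ANPEP varied with WNT9A over these libraries. Of the other members, TCF7 came closest to the WNT9A profile, at rank 425, and WNT5A stood at rank 782.

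WNT5A, the non-canonical ligand, was the most abundant WNT. It stood at 17.6, 17.4 and 16.7 FPKM in bulk Z18 CRISPR libraries against 7.63, 1.44 and 4.29 FPKM in bulk control libraries. The groups did not overlap, and the log2 fold change was 1.92 (standard error 0.42), or 1.43 without bulk control 2. In clones WNT5A was at 50.1, 21.1 and 6.89 FPKM in Z18 trunc/+, 13.9, 19.9 and 14.2 FPKM in Z18 -/+, and 10.3 and 13.3 FPKM in WT. Z18 trunc/+ clones held both the highest and the lowest value, and every Z18 -/+ clone lay above both WT clones. The log2 fold changes were 0.71 (standard error 0.66) for Z18 trunc/+ over WT and 0.40 (standard error 0.66) for Z18 -/+ over WT, with limma adjusted p = 0.81 and 1.0. For Z18 trunc/+ over WT the value was 0.055 without Z18 trunc/+ 1 and 1.40 without Z18 trunc/+ 3. In mean order WNT5A ran from Z18 trunc/+ through bulk Z18 CRISPR, Z18 -/+ and WT to bulk control. Z18 -/+ and WT did not overlap, nor did WT and bulk control, while the higher neighbours did.

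TCF7 and LEF1 encode the DNA-binding partners of beta-catenin. TCF7 was low, at 1.5, 2.23 and 1.28 FPKM in bulk Z18 CRISPR libraries against 0.386, 0.196 and 0.198 FPKM in bulk control libraries. It passed the filter of 1 FPKM in bulk only through the edited libraries, so its difference there was partly set by the filter. The log2 fold change of FPKM + 1 was 1.07 (standard error 0.20), beside a 6.42-fold ratio of means. In clones TCF7 was at 0.452, 2.00 and 0.453 FPKM in Z18 trunc/+, 1.42, 0.766 and 0.623 FPKM in Z18 -/+, and 1.00 and 0.0827 FPKM in WT, and the groups overlapped throughout.

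LEF1 was at 4.24, 4.02 and 3.62 FPKM in bulk Z18 CRISPR libraries and 3.15, 3.72 and 2.08 FPKM in bulk control libraries, which overlapped. It was at 9.35, 3.87 and 11.8 FPKM in Z18 trunc/+ clones, 16.4, 7.17 and 4.69 FPKM in Z18 -/+ clones and 13.8 and 8.63 FPKM in WT clones. The log2 fold changes against WT were -0.47 (standard error 0.55) for Z18 trunc/+ and -0.36 (standard error 0.55) for Z18 -/+, with limma adjusted p = 0.853 and 1.0.

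Among the secreted antagonists, DKK1 and SFRP1 were the most abundant members. DKK1, which blocks the LRP5 and LRP6 co-receptors, was at 114.5, 107.8 and 111.8 FPKM in bulk Z18 CRISPR libraries and 114.1, 136.4 and 143.0 FPKM in bulk control libraries. The log2 fold change was -0.23 (standard error 0.20). In clones DKK1 spread widely inside every genotype, at 46.2, 93.8 and 12.6 FPKM in Z18 trunc/+, 5.69, 102.3 and 128.0 FPKM in Z18 -/+, and 12.2 and 85.6 FPKM in WT. Log2 fold changes against WT were 0.22 for Z18 trunc/+ and 0.40 for Z18 -/+, each with a standard error of 1.44, and both changed sign when single clones were left out. S100B, a neural crest and melanocyte marker, was highest in the clones with low DKK1. It stood at 24.4, 0.474 and 85.4 FPKM in Z18 trunc/+, 77.9, 27.1 and 2.43 FPKM in Z18 -/+, and 65.7 and 6.88 FPKM in WT. MITF, a marker of the same list, was at 3.73, 11.1 and 4.61 FPKM in Z18 trunc/+ clones. It was at 19.7, 5.04 and 14.6 FPKM in Z18 -/+ clones and 5.70 and 2.48 FPKM in WT clones. MITF was thus high in clones with low and with high DKK1. The summed melanocyte lineage list ran from 85.1 to 295.5 FPKM in Z18 trunc/+ clones and from 65.0 to 310.3 FPKM in Z18 -/+ clones, against 124.5 to 251.6 FPKM in WT clones. Its part in the spread of DKK1 was not tested.

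SFRP1, a secreted Frizzled-related decoy, was at 20.2, 19.0 and 21.2 FPKM in bulk Z18 CRISPR libraries and 30.2, 17.9 and 37.1 FPKM in bulk control libraries, with a log2 fold change of -0.42 (standard error 0.28). In clones it was at 94.4, 60.9 and 104.1 FPKM in Z18 trunc/+, 105.6, 106.9 and 40.6 FPKM in Z18 -/+, and 86.0 and 51.5 FPKM in WT. Every clone lay above every bulk library. Log2 fold changes against WT were 0.34 and 0.21 for Z18 trunc/+ and Z18 -/+, each with a standard error of 0.46. DKK3, a divergent family member, was at 1.56, 1.24 and 1.49 FPKM in bulk Z18 CRISPR libraries and 1.28, 0.0950 and 1.16 FPKM in bulk control libraries. It was at 11.2, 4.86 and 2.11 FPKM in Z18 trunc/+ clones, 5.95, 1.48 and 5.68 FPKM in Z18 -/+ clones and 5.56 and 4.10 FPKM in WT clones, again overlapping. Over the 7 members tested, the limma adjusted p ran from 0.617 for WNT9A to 0.989 for DKK3 in Z18 trunc/+ over WT, was 1.0 for each in Z18 -/+ over WT, and ran from 0.800 for WNT9A to 0.993 for TCF7 in Z18 trunc/+ over Z18 -/+.

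**Figure D3:**
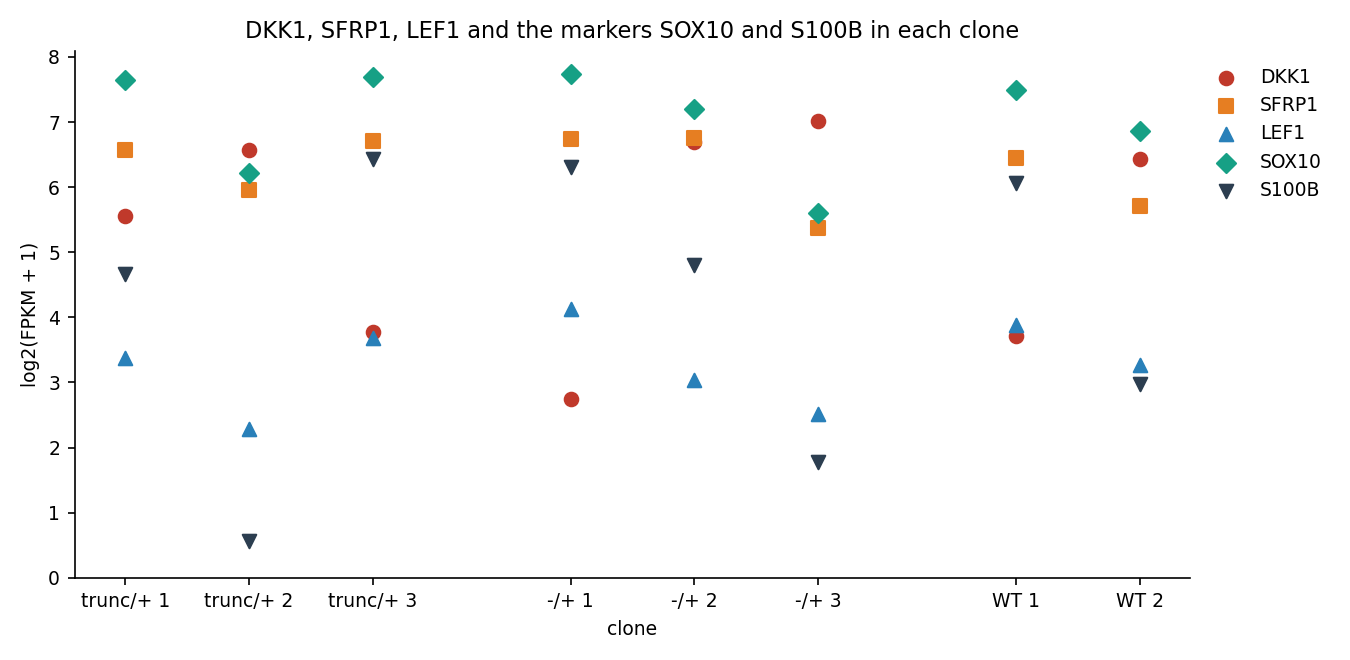
Levels of DKK1, SFRP1, LEF1 and the markers SOX10 and S100B as log2(FPKM + 1) in each of the 8 clones, with 1 symbol per gene. DKK1 is lowest in Z18 -/+ 1 (5.69 FPKM), WT 1 (12.2 FPKM) and Z18 trunc/+ 3 (12.6 FPKM), where S100B is at 77.9, 65.7 and 85.4 FPKM.

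AXIN2, NKD1 and RNF43 encode feedback inhibitors that canonical signalling is known to induce. None reached 1 FPKM in any library, so all 3 fell under the filter and were not tested. AXIN2, a scaffold of the destruction complex, was at 0.260, 0.231 and 0.198 FPKM in bulk Z18 CRISPR libraries against 0.0395 FPKM in bulk control 1 and 0 in the other bulk controls. In clones it was at 0.571, 0.261 and 0.0767 FPKM in Z18 trunc/+, 0.172, 0.149 and 0.247 FPKM in Z18 -/+, and 0.133 and 0.218 FPKM in WT. NKD1, which binds Dishevelled, was at 0.424, 0.371 and 0.432 FPKM in bulk Z18 CRISPR libraries against 0.0420, 0 and 0.00436 FPKM in bulk control libraries. Its highest clone was Z18 trunc/+ 1 at 0.502 FPKM, with the other Z18 trunc/+ clones at 0 and 0.0276 FPKM, Z18 -/+ clones between 0.0634 and 0.0983 FPKM and WT clones at 0.0499 and 0.133 FPKM. The 12 same-strand TE copies that overlap NKD1 exons held 31, 31 and 20 counts in bulk Z18 CRISPR libraries. They held 4, 0 and 4 in bulk control libraries, each of which had fewer aligned fragments than any bulk Z18 CRISPR library. In clones they held 30, 0 and 2 in Z18 trunc/+, 11, 7 and 7 in Z18 -/+, and 11 and 8 in WT. These clone groups overlapped. The copies overlap exons of NKD1, so their counts are not a second measurement beside the FPKM of the gene. RNF43, a ubiquitin ligase that removes Frizzled, stayed at or below 0.0664 FPKM everywhere and was at 0 in all Z18 trunc/+ clones.

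**Figure D4:**
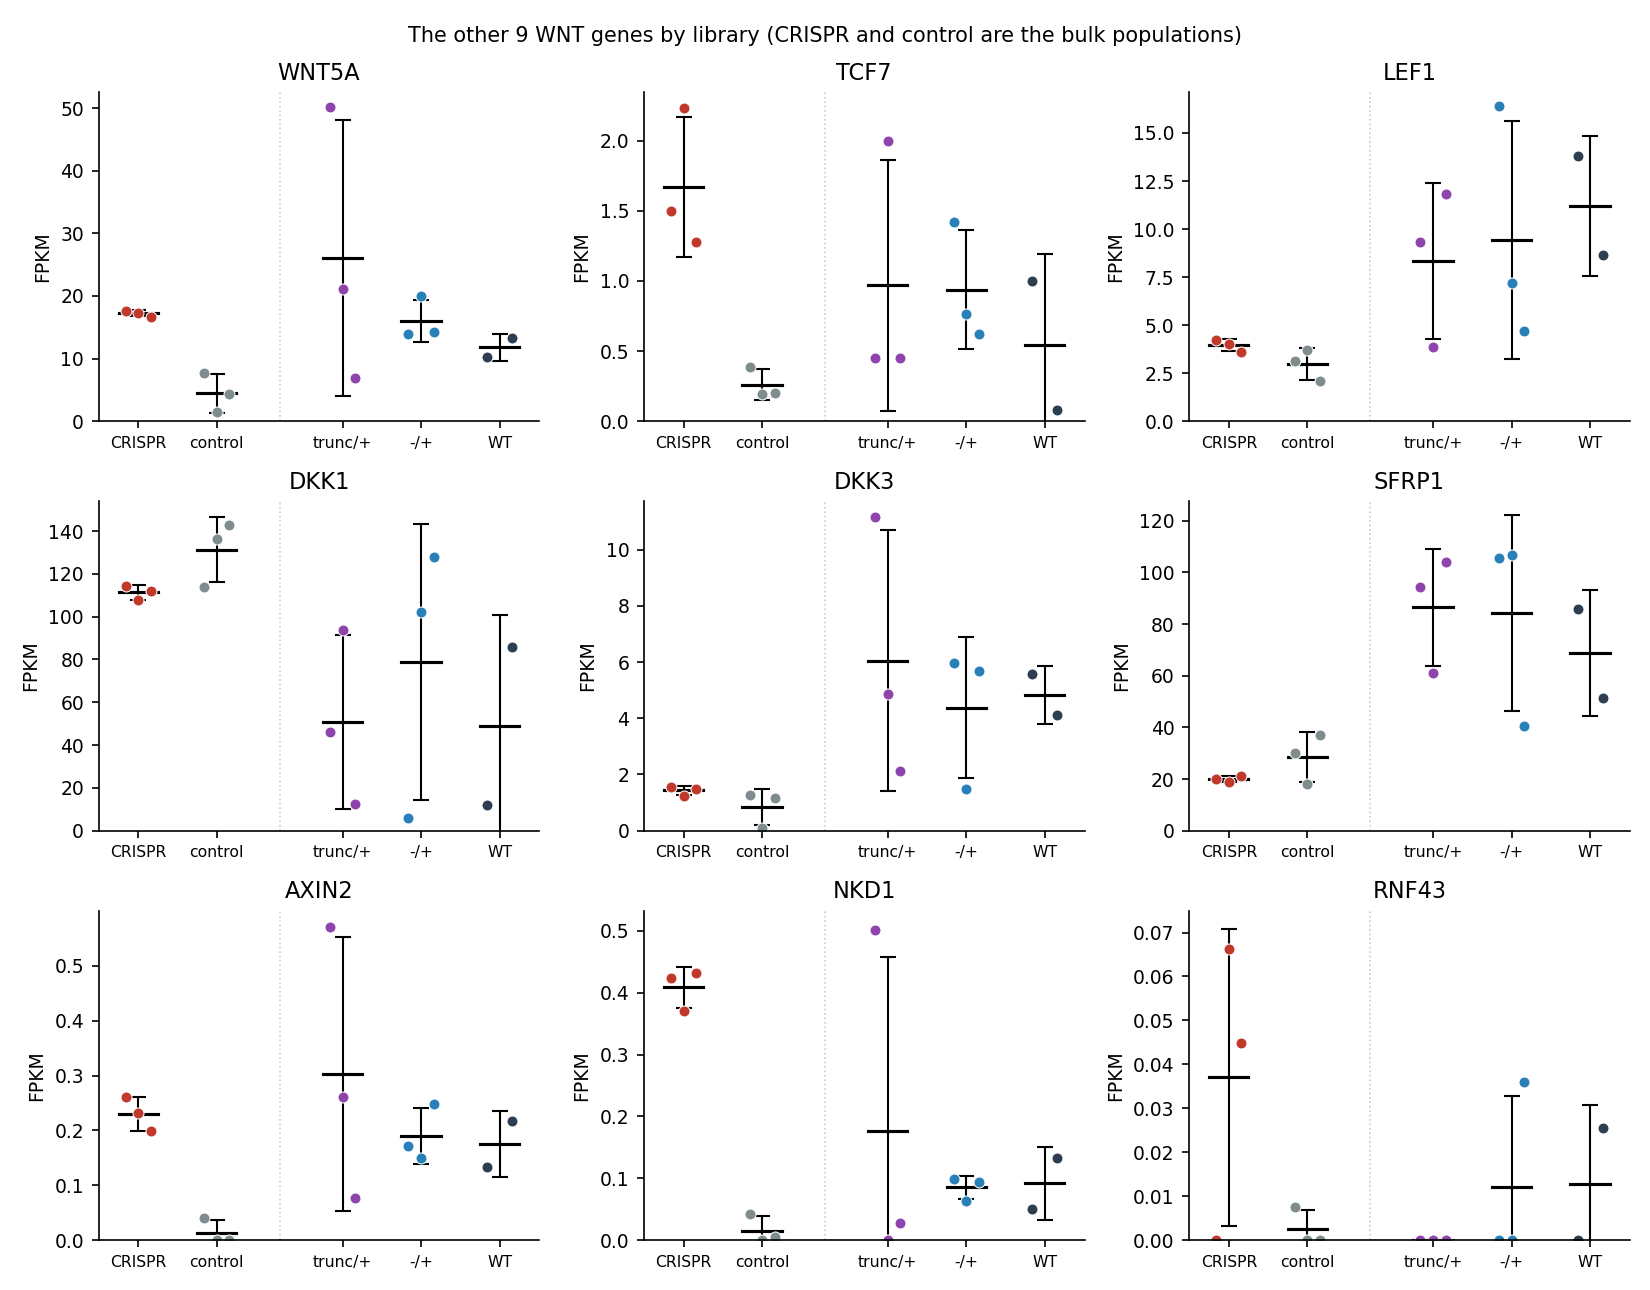
FPKM (vertical axes, each from 0) of the other 9 members in the 14 libraries, with 1 point per library, group means as bars and SD as error bars, which stop at the axis where they would pass below 0 (n = 3, and n = 2 for WT). WNT5A, TCF7, AXIN2 and NKD1 lie higher in every bulk Z18 CRISPR library than in any bulk control library, and the clone groups overlap for most genes.

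Counted together, 5 of the 10 members (WNT9A, WNT5A, AXIN2, TCF7 and NKD1) had every bulk Z18 CRISPR library above every bulk control library and 0 had every one below. The same held for 17.2% of all 20139 genes with a value in bulk, and since this is the contrast WNT9A was chosen on, nothing is read from the count. The summed fibroblast marker list was also higher, with sums of 7.59 to 9.06 FPKM in bulk Z18 CRISPR libraries against 2.61 to 3.36 FPKM in bulk control libraries, through LUM and FAP. PDGFRB was at 0.321, 0.370 and 0.577 FPKM in bulk Z18 CRISPR libraries and 0.540, 0.232 and 0.642 FPKM in bulk control libraries, and COL1A1, COL3A1 and DCN reached at most 1.01 FPKM in any library. The melanocyte lineage list had sums of 32.9 to 39.3 FPKM against 13.9 to 29.8 FPKM, the epithelial list 3.16 to 3.41 FPKM against 1.59 to 3.33 FPKM, and the haematopoietic list 1.99 to 2.72 FPKM against 0.770 to 2.39 FPKM, in the same order of groups. Their part in the bulk difference was not tested. In the clones 1 member lay wholly above WT in Z18 trunc/+ (WNT9A), against 8.5% of all genes. In Z18 -/+ 1 member did (WNT5A), against 5.3% of all genes, and for Z18 trunc/+ over Z18 -/+ 0 members did, against 4.2% of all genes. With 10 members these counts lie near the background.

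The wider pathway was read from 9 role lists with 115 genes, of which 60 were tested in bulk and 74 in clones. The members are left out of the bulk count, since WNT9A was chosen on that contrast. Of the 53 other listed genes tested in bulk, 1 was called higher (BMP4) and 0 lower, where 0.347% of all genes tested were called in either direction and 0.19% were called higher. Their median log2 fold change was 0.27, beside 0.18 for all genes. BMP4, a growth factor listed as a common beta-catenin target, was at 10.4, 8.62 and 9.09 FPKM in bulk Z18 CRISPR libraries against 2.54, 1.43 and 0.642 FPKM in bulk control libraries (log2 fold change 2.10, standard error 0.31, limma adjusted p = 0.0412). Since bulk control 3 lay below 1 FPKM, BMP4 met the filter of 1 FPKM in 3 libraries only with the help of edited libraries. Its difference in bulk was therefore partly set by the filter. With bulk Z18 CRISPR 1, 2 or 3, bulk control 2 or bulk control 3 left out, BMP4 was not called. Without bulk control 1, BMP4 was called higher together with APC, BCL9 and BCL9L, genes singled out after their values were seen. In clones BMP4 was at 11.9, 21.0 and 3.91 FPKM in Z18 trunc/+, 5.30, 2.67 and 9.14 FPKM in Z18 -/+, and 2.81 and 2.00 FPKM in WT. Its log2 fold change for Z18 trunc/+ over WT was 1.72 (standard error 0.63, limma adjusted p = 0.645).

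In the clones 0 of 74 listed genes were called by limma in any of the 3 comparisons. At an unadjusted p under 0.05 there were 5 higher and 1 lower for Z18 trunc/+ over WT, where 1 of those higher was a member. There were 2 higher and 0 lower for Z18 -/+ over WT, and 2 higher and 0 lower for Z18 trunc/+ over Z18 -/+. Among all 12904 genes tested, 424 were higher and 555 lower, 92 and 143, and 402 and 408, for the comparisons in that order. Nothing is read from the listed counts. The median log2 fold change of the 67 listed genes other than members was 0.07 for Z18 trunc/+ over WT, beside -0.02 for all genes, and -0.03 for Z18 -/+ over WT, beside -0.02.

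Among the other ligands, WNT10B was the only one outside the members in the 3 most abundant, at 1.20 to 4.86 FPKM over all libraries, and 5 of the 19 ligand genes were listed at 0 throughout. WLS, the carrier that brings WNT proteins to the cell surface, was at 35.8, 41.4 and 41.7 FPKM in bulk Z18 CRISPR libraries against 28.5, 16.9 and 32.7 FPKM in bulk control libraries (log2 fold change 0.63, standard error 0.27, limma adjusted p = 0.232). PORCN, the acyltransferase that adds the lipid, was at 11.4, 17.5 and 11.2 FPKM against 8.15, 4.12 and 7.02 FPKM in the same order (log2 fold change 0.96, standard error 0.30, limma adjusted p = 0.166). Neither passed the test, although neither overlapped between the groups.

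Of the receptors, RYK, FZD6 and FZD8 were the most abundant. FZD6 was at 31.0, 28.4 and 31.1 FPKM in Z18 trunc/+ clones, 24.0, 25.9 and 20.5 FPKM in Z18 -/+ clones and 18.4 and 19.9 FPKM in WT clones. The 3 genotypes did not overlap, but the log2 fold change of 0.63 for Z18 trunc/+ over WT (standard error 0.14) had a limma adjusted p = 0.536. In bulk FZD6 was at 15.2, 15.4 and 14.9 FPKM in edited libraries against 13.0, 8.06 and 9.68 FPKM in control libraries (log2 fold change 0.55, standard error 0.24, limma adjusted p = 0.236). RYK had log2 fold changes of 0.18 in bulk and 0.07 for Z18 trunc/+ over WT, and FZD8 had 0.15 and 0.13.

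Among antagonists outside the members, TPBG led at 5.62 to 27.4 FPKM. Among genes of receptor turnover, LGR4, LGR6 and ZNRF3 led, and none averaged above 2.17 FPKM. LGR6, an R-spondin receptor, was at 3.24, 4.003 and 0 FPKM in Z18 trunc/+ clones, 0.0133, 0.104 and 5.54 FPKM in Z18 -/+ clones and 0.0351 and 0.0202 FPKM in WT clones, so single clones of both edited genotypes carried it.

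In the signalling core no gene was called. CTNNB1, which encodes beta-catenin, was at 89.7 to 136.1 FPKM over all libraries, with log2 fold changes of 0.10 in bulk (standard error 0.19), -0.03 for Z18 trunc/+ over WT and -0.01 for Z18 -/+ over WT (standard error 0.13 each). CSNK1A1 and DVL1, a kinase of the destruction complex and a Dishevelled, had log2 fold changes of 0.48 and -0.02 in bulk. The nuclear factors CTBP1, PYGO2 and TLE4 had -0.19, 0.07 and -0.65 in bulk, and for TLE4, a co-repressor, the groups did not overlap (limma adjusted p = 0.179). Of 12 nuclear factor genes tested in bulk, 8 had a log2 fold change above 0, beside 7842 of all 12114 genes tested.

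Of the common beta-catenin targets, CCND1, TCF7L2 and TNFRSF19 were the most abundant. CCND1, the cyclin D1 gene, was at 216.6, 219.8 and 218.6 FPKM in bulk Z18 CRISPR libraries against 145.8, 81.9 and 138.0 FPKM in bulk control libraries (log2 fold change 0.88, standard error 0.26, limma adjusted p = 0.156). In clones it was at 316.7, 206.4 and 103.2 FPKM in Z18 trunc/+, 113.0, 138.5 and 105.7 FPKM in Z18 -/+, and 124.8 and 146.9 FPKM in WT. As with WNT9A and WNT5A, Z18 trunc/+ 3 had the lowest CCND1 level of its genotype. TCF7L2 had a log2 fold change of 0.75 in bulk (standard error 0.41), and TNFRSF19 stayed below 1 FPKM in all bulk libraries while the clones ran from 1.87 to 29.1 FPKM. In the non-canonical list CAMK2D, VANGL1 and DAAM2 led, and 0 of its 6 genes tested in bulk or 11 tested in clones were called.

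**Figure D5:**
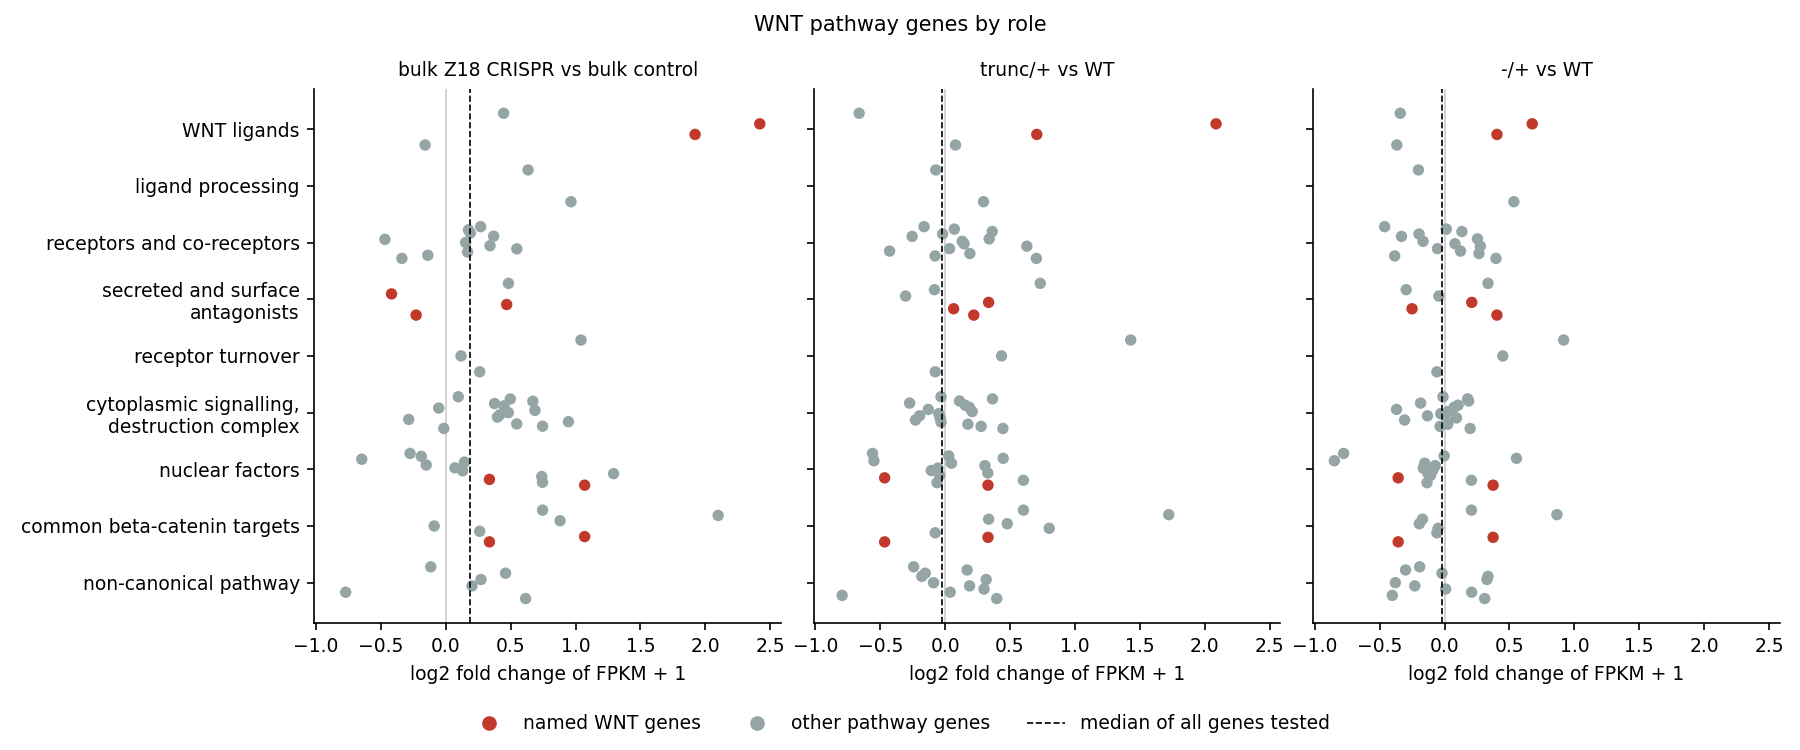
Log2 fold changes of FPKM + 1 (horizontal axes) of the WNT pathway genes tested, by role (rows), for bulk Z18 CRISPR over bulk control, Z18 trunc/+ over WT and Z18 -/+ over WT, with the members in red, other genes in grey and the median of all genes tested as a dashed line. WNT9A lies farthest right in bulk (2.42) and in Z18 trunc/+ over WT (2.09), and BMP4 is the grey point at 2.10 in bulk.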

How the data were processed

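The authors aligned polyA-selected, stranded reads to hg38; the submitters' processing notes name cutadapt 4.6. The deposited gene files hold FPKM, TPM and coverage values of RefSeq genes that the authors made before deposit, and the deposited TE files, made by the authors with SQuIRE, hold for each TE copy an estimated count and a count from unique reads, with the library total. Coverage was not used. There were 0 columns without a sample. FPKM were summed per symbol and tested as log2(FPKM + 1) with limma 3.58.1 (trend, R 4.3.3), over the 6 bulk libraries (1 FPKM or more in 3 libraries) and over the 8 clones together (in 2 libraries), with Benjamini-Hochberg adjustment over all genes and a threshold of 0.05. Estimated counts of TE copies were rounded and tested with edgeR 4.0.16 (quasi-likelihood, aligned fragments as library size, minimum count 10), with DESeq2 1.42.0 as an alternative. The standard errors given for edgeR were worked back from the log2 fold change and the F statistic of the test. Both fits were run on simulated data with large added changes, which does not measure how well they find smaller or more variable differences. P-values measure the spread between these libraries, which may be technical. The members and gene lists were chosen with earlier results of these data known. The genes named were the members, listed genes past the threshold, the 3 most abundant of each role list, and the 5 nearest to WNT9A in profile; LUM, FAP and S100B and other markers come from 4 marker lists, and statements on single clones were chosen after their values were seen. TE copies were assigned to exons of GENCODE release 44. Alternatives were pseudocount, filter, TPM, quantile normalization, replicate number, 2 groups only, scaling and tool for TE copies, unique counts, and each library left out.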

Additional observations from a re-analysis of the deposited data

How the results depend on the processing

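WNT9A kept its direction in all 4 comparisons under every alternative tried. Its bulk log2 fold change was 2.91 with a pseudocount of 0.1, and 2.12 to 2.59 with single libraries left out. With clones left out it was 1.59 to 2.85 for Z18 trunc/+ over WT, 0.43 to 1.03 for Z18 -/+ over WT and 0.92 to 2.17 for Z18 trunc/+ over Z18 -/+. The number of listed pathway genes past the threshold in bulk, members included, was 2, and it was 0 with a pseudocount of 0.1, 0 with TPM, 1 with no filter, 1 with a filter of 5 FPKM, and 0 to 7 with single libraries left out (7 without bulk control 1, 0 without any 1 of the others). Since this contrast chose WNT9A, the members in these counts carry no support. The shares of all genes called under these settings are not given here, so nothing is read from how the number moved. Of the genes other than members, BMP4 was not called under the first 4 of these settings. The log2 fold change of the L2 copy for Z18 trunc/+ over WT passed the threshold with DESeq2 on aligned sizes (5.02), DESeq2 on its own size factors (5.01) and no filter (4.93), the last of which called 118 of 411582 copies there. The cause was not tested.

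With replicate number as a block, BMP4 was the only listed gene other than members to pass the threshold in bulk. The share of all genes called under that setting is not given here, so nothing is read from it. The blocked WNT9A log2 fold change was 2.42 in bulk, 2.41 for Z18 trunc/+ over WT, 1.00 for Z18 -/+ over WT and 1.41 for Z18 trunc/+ over Z18 -/+. Libraries with the same number did not deviate together (correlations of -0.22 to 0.18 in bulk and -0.55 to 0.51 in clones), so the numbers were not taken as pairs.

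Directions of the other members in the clones turned with single clones left out. For Z18 trunc/+ over WT the log2 fold changes ran from -0.11 to 0.77 for TCF7, -1.14 to 1.58 for DKK1, -0.44 to 0.55 for DKK3 and -0.029 to 0.70 for SFRP1. For Z18 -/+ over WT they ran from -0.068 to 0.82 for TCF7, -0.96 to 1.77 for DKK1, -0.51 to 0.24 for DKK3 and -0.15 to 0.67 for SFRP1. For Z18 trunc/+ over Z18 -/+ they ran from -0.35 to 1.00 for WNT5A, -0.46 to 0.34 for LEF1, -0.39 to 0.13 for TCF7, -1.55 to 0.58 for DKK1, -0.19 to 0.80 for DKK3 and -0.33 to 0.36 for SFRP1. FPKM carry no depth, so no counting error can be given for them, and the L2 copy rests on 4 counts in WT clones.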
